A study of Mus musculus with 3 samples.

Results

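Chemokine receptors are cell-surface proteins that couple to inhibitory G proteins and steer leukocytes along gradients of small secreted ligands, the chemokines. Helper T cells exchange these receptors as they are activated and take on effector programmes, so the set a cell carries is used to tell where it can migrate and which helper lineage it resembles. The 9 receptors described here are Ccr1, Ccr2, Ccr3, Ccr4, Ccr8, Ccr9, Cxcr4, Cxcr6 and Cx3cr1. They were chosen by symbol, with earlier results of these data known. Their probes were found by matching RefSeq accessions on the array to gene names. This gave 13 probes for the 9 genes out of 27507 named probes for 20886 genes.

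RNA came from mouse CD4+ T cells 2 days after stimulation, taken from female C57BL/6 animals aged 8 weeks. The groups were wild type (WT), Dll1-/- and Rbpj-/-, with 1 array each. Delta-like 1, encoded by Dll1, binds Notch receptors on neighbouring cells, and Rbpj encodes the transcription factor that cleaved Notch joins in the nucleus. What drove each deletion, which cells carried it, how the cells were stimulated and how many animals made a sample is not stated in the sources used here. Each group has 1 array, so differences lack any check by replicates, and no tests were made. The error printed beside a difference is the scanner software's own estimate for the spots and leaves out variation between animals and cultures.

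All 3 arrays lay on 1 slide, and between 46.6% and 50.1% of 55678 probes were well above background, the scanner software's call that a spot exceeds its surroundings. A level is the log2 of the processed signal after the 75th percentile of that array is subtracted. The T cell markers (Cd3e, Cd3d, Cd3g, Cd247, Cd2, Cd5, Cd28, Lck and Lat) were well above background on every array for 9 of 9 genes. Cd4 was too, by both of its probes, with signals of 3503, 2983 and 3291 in WT, Dll1-/- and Rbpj-/- by the brighter one. Cd40lg, the helper T cell ligand of CD40, was well above background in WT alone. Rbpj itself read 627, 647 and 316 by one probe and 212, 233 and 133 by the other. As differences in level, Rbpj-/- minus WT was -0.66 and -0.35, and Dll1-/- minus WT 0.24 and 0.33. The probe for Dll1 read between 3.60 and 4.51 and stayed below that call. Whether these probes lie inside the deleted sequence is not known here, and neither genotype is checked by them.

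The promoters of 5 of the receptors are shown because Rbpj is one of the deleted genes and its textbook core site can be searched for in them. They are the 250 bases before each gene's start, from RefSeq on GRCm38.p6, whose promoter table matched 9 of 9 genes. Capitals mark the core Rbpj site TGGGAA, or TTCCCA where it lies on the other strand, and the AP-1 site TGANTCA, which reads the same on both strands. AP-1 is a Fos and Jun factor of T cell activation. The first 3 belong to the receptors with the lowest values in Rbpj-/- relative to WT, and the last 2 are those with a core site in this window.
Ccr4 promoter, chr9:114496545-114496794, minus strand: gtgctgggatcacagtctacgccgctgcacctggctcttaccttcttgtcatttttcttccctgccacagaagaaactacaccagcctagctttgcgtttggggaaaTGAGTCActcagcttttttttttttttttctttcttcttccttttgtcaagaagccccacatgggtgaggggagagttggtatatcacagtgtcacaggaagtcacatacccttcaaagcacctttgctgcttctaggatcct
Ccr9 promoter, chr9:123766961-123767210, plus strand: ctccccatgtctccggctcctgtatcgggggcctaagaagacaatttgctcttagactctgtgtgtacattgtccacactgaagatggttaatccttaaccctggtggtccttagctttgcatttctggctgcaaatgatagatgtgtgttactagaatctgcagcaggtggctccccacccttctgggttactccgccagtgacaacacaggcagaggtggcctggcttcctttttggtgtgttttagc
Cxcr6 promoter, chr9:123806227-123806476, plus strand: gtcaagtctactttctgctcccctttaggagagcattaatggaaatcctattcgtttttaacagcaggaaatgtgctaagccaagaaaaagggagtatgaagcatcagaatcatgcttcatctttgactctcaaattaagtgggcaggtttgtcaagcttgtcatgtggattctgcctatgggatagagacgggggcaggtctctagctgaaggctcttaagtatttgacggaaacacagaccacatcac
Ccr3 promoter, chr9:124021721-124021970, plus strand: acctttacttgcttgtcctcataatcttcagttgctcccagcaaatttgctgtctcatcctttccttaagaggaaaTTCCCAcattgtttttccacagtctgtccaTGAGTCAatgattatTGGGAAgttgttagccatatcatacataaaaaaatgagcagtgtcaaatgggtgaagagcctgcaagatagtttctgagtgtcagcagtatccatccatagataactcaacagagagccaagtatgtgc
Cx3cr1 promoter, chr9:120068297-120068546, minus strand: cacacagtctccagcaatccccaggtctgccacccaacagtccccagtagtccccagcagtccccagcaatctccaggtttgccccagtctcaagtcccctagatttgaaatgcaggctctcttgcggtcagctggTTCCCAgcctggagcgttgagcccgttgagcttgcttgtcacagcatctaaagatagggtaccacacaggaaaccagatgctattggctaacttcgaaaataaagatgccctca
The core site TGGGAA was found on either strand in 2 of 9 receptor promoters, against 21.6% of 32851 promoters of the same length in the table. Ccr3 held it at base 77 on the opposite strand and at base 122 on the gene's own strand, counted from the left end of the window, and Cx3cr1 held it at base 137 on the opposite strand. TGANTCA was found in Ccr4 at base 108 and in Ccr3 between its pair of core sites, against 6.75% of promoters. A match describes letters in this window only, and a missing match says nothing about binding elsewhere in the gene.

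Detection divided the receptors. Ccr2, Ccr4, Ccr9, Cxcr4 and Cxcr6 were well above background on all 3 arrays, with 6 probes in all. Ccr1, Ccr3 and Cx3cr1 were below that call on every array, as was 1 of the Ccr8 probes, which makes 6 probes for 4 genes. The second Ccr8 probe passed in Rbpj-/- alone. Among all named probes 54.1% passed on all 3 arrays and 38.2% on none, so the receptors' shares of 46.2% each were not far from those of the array. No probe's signal is ranked here against that of another, since probes differ in how well they bind.

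**Figure D1:**
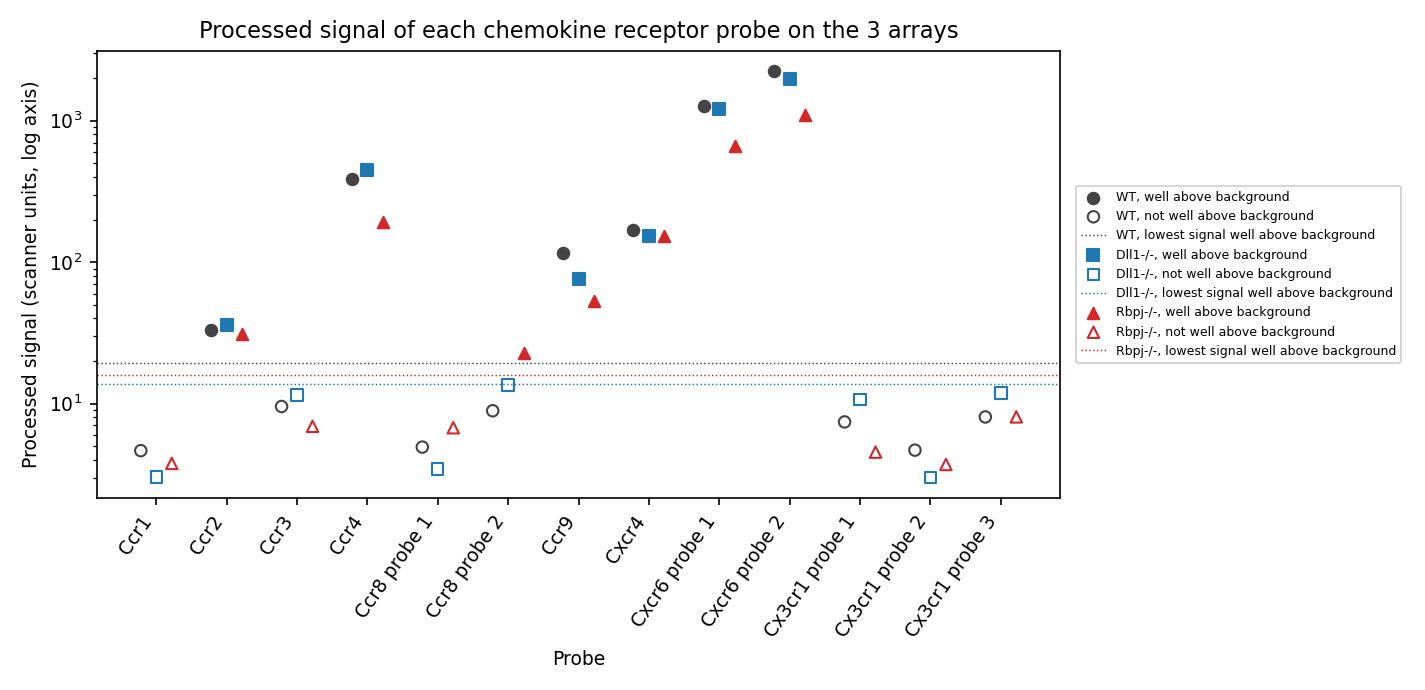
Processed signal on a log axis for each of the 13 receptor probes, with WT as circles, Dll1-/- as squares and Rbpj-/- as triangles; filled symbols are well above background and dotted lines give each array's lowest such signal (19.2, 13.6 and 15.8). Triangles lie below the other symbols for Ccr4, Ccr9 and both Cxcr6 probes, whereas for Cxcr4 and Ccr2 the 3 symbols lie close together.

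Transcripts of Ccr4, Ccr9 and Cxcr6 were lower in Rbpj-/- than in WT, by 1.60-fold, 1.74-fold and, over its probes, 1.53- and 1.64-fold. Thus 4 of 6 measured receptor probes, both Cxcr6 probes among them, were at least 1.5-fold lower, where 6.63% of named probes were. By gene it was 3 of 5, where 6.64% of genes were. With the receptors picked when such values were known, these shares describe them and test nothing. Cxcr4 and Ccr2 stood slightly above WT. In Dll1-/- 0 of 6 receptor probes were 1.5-fold apart from WT in either direction, against 4.02% of named probes. Ccr4 had the largest difference of the 6 between the knockouts, and was 2.11-fold lower in Rbpj-/- than in Dll1-/-. After normexp correction with quantile normalization, 0 of 6 probes were 1.5-fold lower in Rbpj-/- than in WT. Of named probes, 2.56% were that much lower. The Cxcr6 probes, which were not dim, were at -0.42 and -0.41 there, and the cause of this change was not tested. In RNA from mixed cells, fewer cells of a type and less RNA per cell cannot be told apart.

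Ccr4 is the receptor for Ccl17 and Ccl22 and is carried by Th2, regulatory and skin-homing helper T cells. Its probe read 386 in WT, 447 in Dll1-/- and 192.1 in Rbpj-/-. Dll1-/- was the highest and Rbpj-/- the lowest of the arrays. Expressed as levels these were 1.12, 1.52 and 0.44, so the difference from WT was 0.40 in Dll1-/- and -0.68 in Rbpj-/-, with software errors of 0.20 and 0.21. The knockouts were -1.08 apart with an error of 0.21. Of all named probes measured in both arrays, 4.79% lay lower than Ccr4 in Rbpj-/- minus WT and 95.01% lay lower in Dll1-/- minus WT. Ccr4 thus stood near the lower edge of the array's spread in the first and near the upper edge in the other, and both use the same WT array.

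Cxcr6, the receptor for the transmembrane chemokine Cxcl16, is found on effector and tissue-resident T cells. Its probes read 1281 and 2244 in WT, 1208 and 1964 in Dll1-/-, and 668 and 1090.0 in Rbpj-/-. Rbpj-/- was the lowest array by both. Relative to WT the probes stood at -0.61 and -0.71 in Rbpj-/-, with an error of 0.20 each, and at 0.11 and -0.00 in Dll1-/-. They share a transcript and are not independent replicates, but lie at rows 105 and 216 of the array, and their differences lay within the error of each other.

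Ccr9 guides T cells to the small intestine and thymus through its ligand Ccl25. Its probe read 116 in WT, 76.4 in Dll1-/- and 53.1 in Rbpj-/-. WT was the highest array for this gene and Rbpj-/- the lowest. The difference from WT was -0.80 in Rbpj-/-, with an error of 0.23, and -0.41 in Dll1-/-, with an error of 0.22. Ccr9 thus lay below WT by more than its spot error on both knockout arrays, while the knockouts were -0.39 apart with an error of 0.23.

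Cxcr4, the receptor for Cxcl12 that retains lymphocytes in marrow and lymphoid tissue, read 168 in WT, 153 in Dll1-/- and 154 in Rbpj-/-. Its differences from WT were 0.05 and 0.20, each no larger than the error of 0.21. Ccr2 binds Ccl2 and related chemokines of inflammation and was dim, with 32.9 in WT, 35.8 in Dll1-/- and 31.1 in Rbpj-/-. It stood at 0.31 in Dll1-/- and 0.25 in Rbpj-/- relative to WT, with errors of 0.30 and 0.32, so its differences were about as large as the spot error or smaller.

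**Figure D2:**
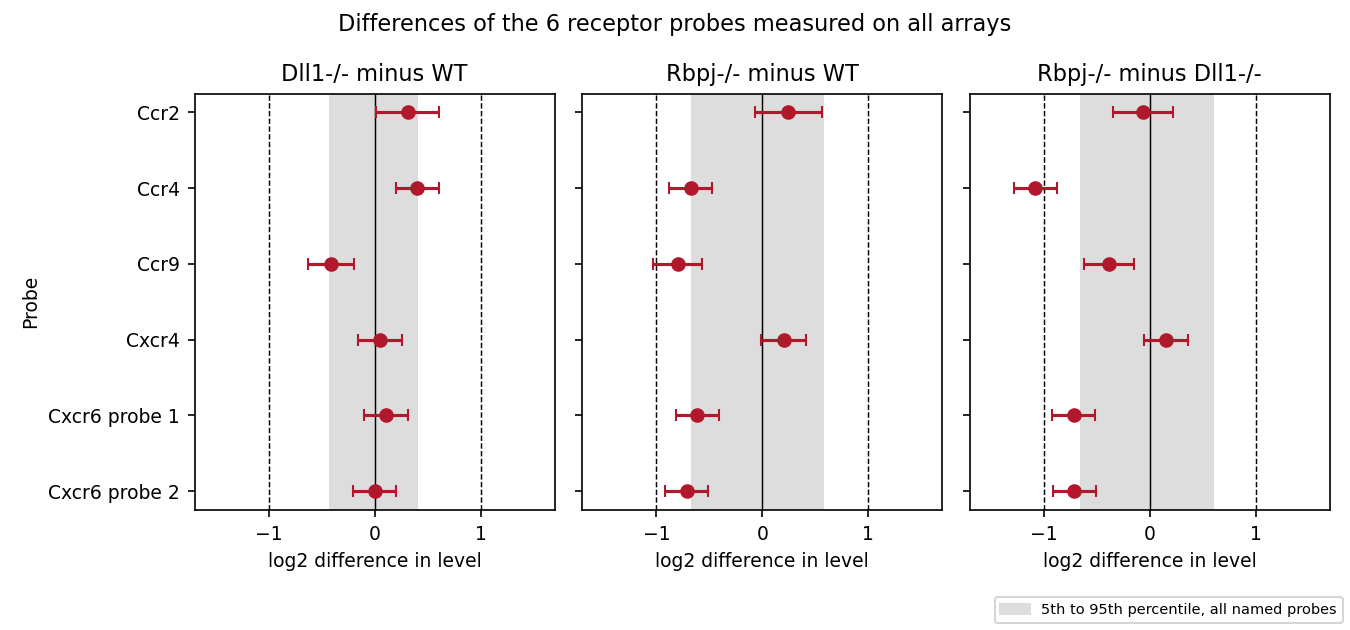
Log2 difference in level for the 6 receptor probes in each of 3 comparisons, with bars for the scanner software's error of 1 SD, grey bands for the 5th to 95th percentile of all named probes and dashed lines at 2-fold. In Rbpj-/- minus WT the points for Ccr4, Ccr9 and Cxcr6 run from -0.61 to -0.80, those for Ccr2 and Cxcr4 lie above 0, and Ccr4 alone passes the dashed line, in Rbpj-/- minus Dll1-/-.

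Ccr8, a receptor for Ccl1 found on Th2 and regulatory T cells, gave a bound only. Its second probe read 8.89 in WT, 13.5 in Dll1-/- and 22.6 in Rbpj-/-, of which the last was well above background. Set against the lowest signal well above background on the other arrays, it was at least 1.48-fold higher in Rbpj-/- than in WT and at least 1.82-fold higher than in Dll1-/-. With spike-in scaling the first bound was lost and the other was 1.37-fold. Its first probe read 4.92, 3.44 and 6.75 and was below the call throughout, so the direction rests on 1 dim spot.

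The remaining receptors stayed below the call. Ccr1, which binds Ccl3 and Ccl9, read 4.65 in WT, 3.02 in Dll1-/- and 3.77 in Rbpj-/-. Ccr3, the eotaxin receptor of eosinophils and some Th2 cells, read 9.53, 11.5 and 6.91 in the same order. Cx3cr1, the receptor for Cx3cl1 on monocytes, NK cells and cytotoxic effectors, read at most 11.9 over its 3 probes and the 3 arrays. No fold is given for these genes, since none was measurable on any array, and low expression cannot be told from a poorly binding probe.

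Counted against the rest of the array, 0 of 6 receptor probes were at least 2-fold apart in Dll1-/- minus WT, where 0.807% of 15237 named probes were. In Rbpj-/- minus WT the count was 0 of 6 against 3.2% of 14941, and in Rbpj-/- minus Dll1-/- it was 1 of 6 against 3.91% of 15269, with Ccr4 as the one. At 1.5-fold, 3 of 6 were lower in Rbpj-/- than in Dll1-/-, namely Ccr4 and both Cxcr6 probes, against 5.87%. The median over the 6 probes was -0.64 in Rbpj-/- minus WT and 0.08 in Dll1-/- minus WT, beside medians of -0.07 and -0.03 over all named probes. The receptors were picked with such values known, so these counts describe them and test nothing.

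Ccr4, Ccr9 and Cxcr6 lay below WT in Rbpj-/- under each of the 4 scalings tried, while the direction of Cxcr4 and Ccr2 turned. Relative to WT, Ccr4 lay between -1.26 and -0.52, Ccr9 between -1.39 and -0.39, and the Cxcr6 probes between -1.30 and -0.41. Cxcr4 and Ccr2 became -0.39 and -0.34 when arrays were scaled to the E1A spike-in spots. That scaling moved the median of all measured genes from -0.07 to -0.66, and scaling to the array median moved it to -0.24, so every receptor was shifted by the same amount. In Dll1-/- minus WT, where Cxcr4 and Cxcr6 lay near 0, their sign turned under spike-in scaling or normexp, whereas Ccr4 stayed between 0.23 and 0.40 and Ccr9 between -0.58 and -0.19.

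**Figure D3:**
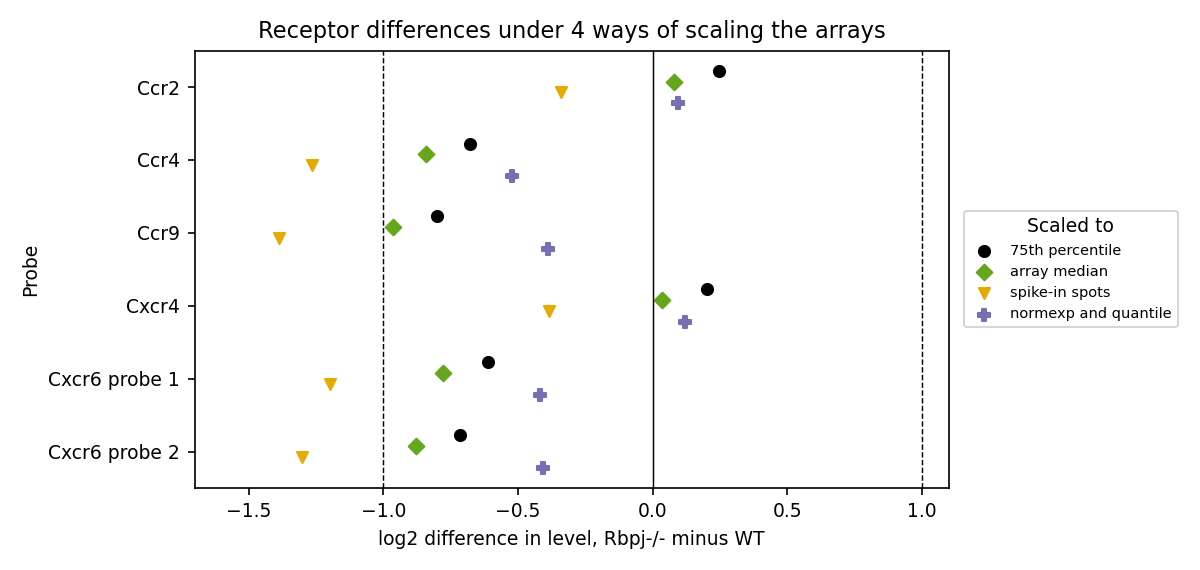
Log2 difference in level between Rbpj-/- and WT for each measured receptor probe under 4 ways of scaling, with dashed lines at 2-fold. Ccr4, Ccr9 and Cxcr6 lie left of 0 under each of them, whereas Cxcr4 and Ccr2 cross 0 under spike-in scaling.

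To take position on the array into account, each receptor was set beside the probes around it. Within 10 rows and 10 columns of the Ccr4 spot, 161 measured probes had a median of -0.01 in Rbpj-/- minus WT and a 5th to 95th percentile range of -0.57 to 0.52, and Ccr4 at -0.68 lay below it. Ccr9 at -0.80 lay below the range of its 171 neighbours, -0.65 to 0.60. The Cxcr6 probe at -0.71 lay just below the range of its 114 neighbours, -0.70 to 0.74, and the one at -0.61 lay inside that of its 164, -0.77 to 0.49. In Dll1-/- minus WT both Ccr4 at 0.40 and Ccr9 at -0.41 lay inside their neighbours' ranges, which were -0.37 to 0.47 and -0.52 to 0.44.

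Most of these receptor genes sit together on a chromosome. By the order of genes in GRCm38.p6, 8 of 9 lie on chromosome 9 and Cxcr4 on chromosome 1. Ccr9, Fyco1, Cxcr6, Xcr1, Ccr1, Ccr1l1, Ccr3 and Ccr2 follow each other in that order, and Cx3cr1 and Ccr8 are direct neighbours elsewhere on it. Fyco1, an adaptor in vesicle transport that lies between Ccr9 and Cxcr6, stood at 0.21 in Rbpj-/- minus WT, and Lztfl1, a cilium-related gene on the other side of Ccr9, at -0.03. Fyco1 and Lztfl1 were therefore not lower with Ccr9 and Cxcr6, Xcr1 on the other side of Cxcr6 was not measured, and Ccr2, at the far end of the same row, stood at 0.25. Around Ccr4 the nearest measured genes were Glb1, a lysosomal galactosidase, at -0.25 and Cnot10, a subunit of the deadenylase complex, at 0.03.

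The ligands of these receptors were read from a list of 19 chemokine genes, of which 8 were measured in all 3 arrays. In Rbpj-/- 7 of 8 lay below WT, with a median of -0.70 (-1.29 under spike-in scaling and -0.40 after normexp) and 3 at least 2-fold lower, where 1.94% of 11574 genes were that much lower. The count of 3 was 6 under spike-in scaling and 1 after normexp. Over all genes the median was -0.07 and 60.4% lay below WT. In Dll1-/- 3 of 8 lay below WT, with a median of 0.12 that was -0.05 under spike-in scaling, and 1 was at least 2-fold higher, against 0.237% of 11807 genes, but 0 were under spike-in scaling or after normexp.

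Ccl17, the ligand of Ccr4, read 119 in WT, 218 in Dll1-/- and 54.4 in Rbpj-/-. The order of the arrays was that of Ccr4, with Dll1-/- highest and Rbpj-/- lowest. Its differences were 1.06 in Dll1-/- minus WT, -0.80 in Rbpj-/- minus WT and -1.87 in Rbpj-/- minus Dll1-/-. After normexp correction with quantile normalization they were 0.81, -0.41 and -1.22. Ccl22, which shares the receptor, was below the background call throughout.

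Ccl1, the ligand of Ccr8, read 17264, 16472 and 9075, with Rbpj-/- the lowest array and a difference of -0.60 from WT. The ligand was thus lower where the dim Ccr8 probe was higher. Ccl3, Ccl4 and Ccl9, which signal through Ccr1 and related receptors, stood at -1.12, -1.42 and -1.45 in Rbpj-/- minus WT and at 0.12, -0.08 and 0.25 in Dll1-/- minus WT, although Ccr1 was not measurable. Ccl5 was at -0.09, a sign that turned after normexp, and Ccl6 at -0.46 in Rbpj-/-. Ccl25, the ligand of Ccr9, was the measured ligand above WT there, at 0.32 as a mean over 2 probes. It turned to -0.26 under spike-in scaling. The brightest Ccl25 signal was 89.8 in WT, 173 in Dll1-/- and 218 in Rbpj-/-. Against means of 0.31 and 0.32, its probes therefore went opposite ways in both knockouts, and the mean describes neither probe. Cxcl12 and Cxcl16, the ligands of Cxcr4 and Cxcr6, were below the call on every array. Cx3cl1 was measured in the knockouts only, where it stood at -0.62 in Rbpj-/- minus Dll1-/-.

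**Figure D4:**
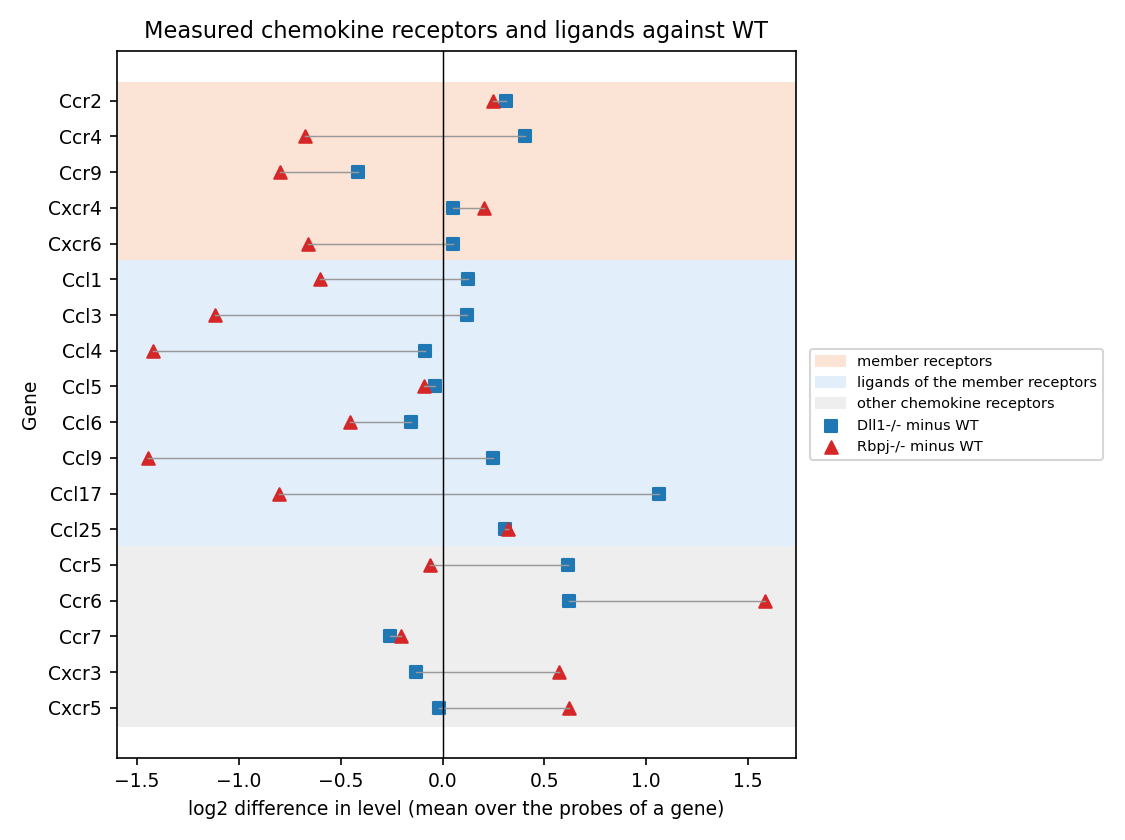
Log2 difference from WT for measured genes, with Dll1-/- as squares and Rbpj-/- as triangles; shading separates the 5 measured receptors described here, 8 of their ligands and 5 other chemokine receptors. Ccr4 and Ccl17 have squares right of 0 and triangles left of it, while Ccr6 has both symbols on the right, at 0.62 and 1.58.

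Receptors outside the set did not share the lower values in Rbpj-/-. Of 14 other chemokine and atypical receptors 5 were measured in both Rbpj-/- and WT, and 3 of these lay above WT, with a median of 0.57 that was -0.01 under spike-in scaling. Ccr6, a receptor of Th17 and regulatory T cells, read 425 in WT, 573 in Dll1-/- and 1015 in Rbpj-/- and was 1.58 above WT, where 1.2% of genes were at least 2-fold higher. Under spike-in scaling it was at 1.00, just short of 2-fold. Cxcr5, the follicular homing receptor, was at 0.62, or 0.03 under spike-in scaling, and is named after its value was seen.

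Genes that carry the receptors' signal lay near WT as a group, though their split depended on the scaling. Of 41 such genes 38 were measured, with 20 above and 18 below WT in Rbpj-/- and a median of 0.03, and 15 above and 23 below in Dll1-/- with a median of -0.05. These medians became -0.56 and -0.22 under spike-in scaling. In Rbpj-/- 1 gene was above and 37 below WT under that scaling, and 30 were above and 8 below after normexp. Tiam1, an exchange factor for Rac, was 1.46 above WT in Rbpj-/-, and 0.87 under spike-in scaling. Rgs16, a brake on G protein signalling, was at 0.51 in Dll1-/- and -0.91 in Rbpj-/- relative to WT, so its arrays ran in the same order as for Ccr4. The G protein gene Gnai2, through which these receptors act, was at -0.19 and -0.14.

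Among 18 other homing receptors and adhesion genes on the array 16 were measured, with a median of -0.12 in Rbpj-/- minus WT that was 0.02 after normexp. Itga4, a chain of the integrin that binds VCAM-1, was 1.05 above WT there, and Ltb4r1, the leukotriene B4 receptor, 1.07. Neither stayed 2-fold apart after normexp correction with quantile normalization, where they were at 0.94 and 0.44, or under spike-in scaling, where they were at 0.46 and 0.49.

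The regulators that define helper subsets stood on both sides of WT. In Rbpj-/- minus WT the Th1 factor genes Tbx21 and Eomes were at -1.04 and -1.22, the Th2 factor gene Gata3 at -0.37 and the regulatory factor gene Foxp3 at 1.25. After normexp correction with quantile normalization Foxp3 was at 1.23, Tbx21 at -0.94 and Eomes at -0.72, and under spike-in scaling they were at 0.66, -1.63 and -1.81, so each was short of 2-fold under one of them. Over 12 regulators the median was 0.22 with 8 above WT, and it was -0.37 under spike-in scaling. In Dll1-/- 10 of 12 lay above WT with a median of 0.18, or 0.01 under spike-in scaling, and none was 2-fold apart.

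Markers of other cells also differed between the arrays, and their part in the receptor values was not tested. For the NK cell list, 3 of 7 genes were measured in Rbpj-/- and WT, and the summed level was 5.51 in WT, 7.82 in Dll1-/- and 1.95 in Rbpj-/- in multiples of the 75th percentile. The protease gene Gzma, with signals of 709, 834 and 67.3, made up most of it in WT and Dll1-/- but not in Rbpj-/-. Ncr1, which defines NK cells, was below the call on every array. All 3 measured genes of the list lay below WT in Rbpj-/-. Klrb1c, by contrast, read 8.52, 18.0 and 25.6, highest in Rbpj-/-, and passed the call in the knockouts only. The CD8 T cell list, with 2 of 2 genes detected, summed to 1.36, 1.34 and 0.82, and the B cell list, with at least 4 of 6 detected on each array, to 21.2, 21.1 and 14.7. Both were lowest in Rbpj-/-, as were Ccr4, Ccr9 and Cxcr6.

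Of the myeloid lists, 2 or 3 of 7 monocyte and macrophage genes, 1 of 6 dendritic cell genes and 5 of 5 neutrophil genes were detected on each array. Their sums of 35.2 to 72.1, 269 to 306 and 366 to 395 each rested mainly on 1 gene, as the array names it: Itgam, Siglech and Csf3r. The probe sequences behind these very bright signals were not checked here. Csf1r, the macrophage growth factor receptor, was well above background by all 3 of its probes, with 446.5 to 476 by the brightest, whereas Cd14, Adgre1 and Fcgr1 were below the call on every array, as were Flt3, Itgax, Clec9a, Xcr1 and Zbtb46 of the dendritic cell list. Of the neutrophil genes, Mpo was at 0.10 in Dll1-/- and -0.27 in Rbpj-/- relative to WT, and Elane at -0.05 and -0.00. S100a8 and S100a9, the calprotectin genes, were at -1.34 and -1.14 in Dll1-/- minus WT and at 0.70 and 0.86 in Rbpj-/- minus WT, an order of levels opposite to that of Ccr4. S100a8 was dim in Dll1-/-, at 16.1 where the faintest signal that passed was 13.6. In Dll1-/- minus WT 2 neutrophil genes were 2-fold lower under spike-in scaling too, but 0 were after normexp. The eosinophil, basophil and mast cell list had 2 of 8 genes detected on each array, with sums of 0.77 to 0.96. The genes detected were not the same throughout. Il5ra passed on every array, Siglecf in WT and Dll1-/- only, and Mcpt8 in Rbpj-/- only. The equal counts and similar sums therefore do not show that this list was steady. Prg2 and Epx were below the call where Ccr3 was.

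Likeness of pattern was measured as the largest difference in level over the 3 arrays after each probe was centred on its own mean. By this measure the probes most like Ccr4 were those of Ahnak, a large scaffold protein, Rabgap1, a GTPase-activating protein, and Ddx25, an RNA helicase, at 0.01, 0.02 and 0.02 log2. These probes were very bright, with signals in WT of 107139, 92741 and 131536, and their gene names are those of the matched accessions, with probe sequences not checked here. Ccr4 was the receptor gene that spanned at least 2-fold over arrays on which it was measured. With 14254 probes compared over 3 values each, this closeness describes these arrays alone.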

How the data were processed

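Expression was measured with 1-colour Agilent arrays (Cy3) in 3 samples, from 20 ng of RNA each per the labels. The authors deposited scanner files with a processed signal, which is a linear intensity after background subtraction and spatial detrending in Feature Extraction 10.7 per the submitters' processing notes (10.7.1.1 per the file headers), with its error and the median spot and background intensity. The table of log2 values that the authors deposited has column medians of -3.44, -3.39 and -3.28. In 100% of rows they differed from the log2 signal by the array's own constant to within 0.01, so genes were not centred and higher means brighter.

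Outlier spots (139 to 163 per array) were left out, none was saturated, and spots of a probe were averaged. Levels are log2 signals, less the 75th percentile of each array's non-control probes. Accessions without versions were matched to GRCm38.p6 names, which named 49.4% of probes. The array was designed on mm9 per the file headers, so only names, gene order and the RefSeq promoter windows carry GRCm38.p6. Probe sequences were not used here. A probe counts as measured in a comparison when well above background on both arrays; a gene is the mean over such probes. For a bound, the dim array's value is its own signal or, if higher, the faintest signal that passed the background call there, after scaling.

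Precision is limited by having 1 array per group, and no test was possible. Spots of repeated probes had a median SD of 0.05 to 0.06 log2. The receptors and lists were chosen with earlier results of these data known. Named genes were every receptor and measured ligand of the set, and from the other lists those at least 2-fold apart in a comparison or else the 2 largest. For a receptor spanning 2-fold, the 3 probes of most similar pattern were added. One gene that the rule names is not reported here. Cxcr5, Gata3, Gnai2, marker genes and neighbouring genes were named after their values were seen. The counting was tested on simulated data. Alternatives used limma 3.58.1 in R 4.3.3 (normexp with offset 50, then quantile normalization), other scalings, filters, rows and fold sizes.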

Additional observations from a re-analysis of the deposited data

How the results depend on the processing

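With 6 measured receptor probes (13 with no filter on dim probes), the count at least 2-fold apart in Rbpj-/- minus WT was 0, 4 under spike-in scaling, 1 with no filter on dim probes and 4 at 1.5-fold. In Rbpj-/- minus Dll1-/- it was 1, 3 under spike-in scaling, 0 after normexp with quantile normalization, 0 of 3 in the higher-numbered rows of the array, 3 with no filter and 3 at 1.5-fold. In Dll1-/- minus WT it was 0 under each of the 10 alternatives. Over all named probes the counts of 123, 478 and 597 (Dll1-/- minus WT, Rbpj-/- minus WT, Rbpj-/- minus Dll1-/-) became 18, 147 and 269 after normexp with quantile normalization, 15, 199 and 270 in the higher-numbered rows, 1631, 2567 and 2803 with no filter, 21, 227 and 335 with a stricter filter, and 612, 1710 and 1680 at 1.5-fold. Spike-in scaling gave 1888 and 977 for the last 2, of which 1847 and 899 were lower, where the main counts had 292 and 378 lower, and the lower-numbered rows gave 108, 291 and 337 for the 3 comparisons. The Dll1-/- minus WT calls thus lay mostly in the lower-numbered rows, with 108 of 7674 probes against 15 of 7783 in the others. Median scaling had 456 of 576 and 491 of 658 lower. The cause of these changes was not tested. Signal over background limits Ccr1, Ccr3, Ccr8 and Cx3cr1, which lie at or under the background call. No paired analysis was possible because each group has 1 array.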
